A study of Arabidopsis thaliana with 15 samples.

Results

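Stomata, the pores through which leaves exchange gas and lose water, are laid out by a small set of genes that act in the epidermis of young leaves. The 10 genes described here are the transcription factors SPCH, MUTE, FAMA and ICE1, the receptor proteins TMM and ER, the protease SDD1, and the secreted peptides EPF1, EPF2 and STOMAGEN. They were taken by locus code, with earlier results of these data known, and all 10 were found among the 22526 genes of the tables. Of the 10, 9 had a mean of at least 1 CPM over the conditions (CPM, the reads of a gene scaled to a common library size) and are called measured, as were 18878 of all genes with a value in every condition. The exception was MUTE.

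In textbook accounts, SPCH starts the lineage by driving asymmetric divisions, MUTE ends them, and FAMA completes the guard cell fate, each as a dimer with ICE1 or its close relative SCRM2. The peptides EPF2 and EPF1 are released by lineage cells and restrain neighbouring cells through receptor kinases of the ER family together with TMM, which lacks a kinase domain. STOMAGEN comes from the mesophyll below, competes with those peptides for the same receptors and raises stomatal number. Where such a gene is active only in dividing cells of young organs, a whole seedling holds its transcripts from a small part of its tissue. That does not hold for STOMAGEN, made in the mesophyll, and need not hold for ER or ICE1.

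The samples were wild-type Arabidopsis thaliana seedlings of the accession Col-0, 14 days old, held in liquid medium for the last day. Polyadenylated RNA was sequenced from untreated seedlings (control), from seedlings given 20 µM abscisic acid (ABA) for 1 h or 3 h, and from seedlings laid on filter paper outside the medium for 1 h or 3 h (dehydration). Each of the 5 conditions had 3 libraries, which the tables hold as 1 combined column. No difference between conditions could therefore be set against the spread of replicates, and none was tested. All 4 comparisons with the control share its column. The control was harvested before the treatments began, so treatment, elapsed time and handling cannot be told apart in comparisons with it. The ABA stock was made in methanol, and no group is labelled as a solvent control.

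The 5 columns held 163762670 to 204315702 reads. Counting intervals at 95%, given in brackets, cover counting error only. The drought and ABA genes RD29B (AT5G52300) and HAI1 (AT5G59220) were 1952-fold and 103-fold higher than the control after ABA 3 h, and the ABA synthesis gene NCED3 (AT3G14440) was 72.5-fold higher after dehydration 3 h. These and the late-embryogenesis gene RAB18 (AT5G66400), 4 checks of the treatments, were all at least 2-fold higher than the control after both times of ABA and after dehydration 3 h. After dehydration 1 h it was 3 of 4, with NCED3 18.98-fold higher and RAB18 at a log2 ratio of −0.52. None of 5 mesophyll, 10 epidermis, 12 guard cell or 8 root markers was at 0 in any column. At this depth, that alone does not show that a tissue was present.

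Upstream sequence is shown for every occurrence, in the members, of a core letter pattern of the drought and ABA response: CCGAC, read by DREB factors, or ACGTG, read by ABF factors. The stretches come from the 250 bases before the gene start that RefSeq annotates on TAIR10.1, are written on the strand of the gene, and show the pattern or its reverse complement in capitals. The first letter of the pattern lies before the annotated start, at -90 in STOMAGEN, -170 and -148 in TMM, -227 and -92 in ER, and -214 in MUTE, and the stretches follow in that order.
STOMAGEN (AT4G12970, chromosome 4): tatatttagttgCCGACaaaaagtaactaa
TMM (AT1G80080, chromosome 1): cgataaggagacGTCGGgtcccgttcacga
TMM (AT1G80080, chromosome 1): gttcacgaagcgGTCGGatctagggcccaa
ER (AT2G26330, chromosome 2): ttttgtgacaaaCCGACcggagccaaccaa
ER (AT2G26330, chromosome 2): acttagaaatcaCACGTtcactatactaaa
MUTE (AT3G06120, chromosome 3): ccaacttcacaaACGTGacgtatctttgtg

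Searched on both strands, CCGAC occurred in 3 of 10 member windows (STOMAGEN, TMM and ER) and in 12.6% of the windows of 22431 genes in the tables. ACGTG occurred in 2 of 10, MUTE and ER, and in 24.0% of all windows. CACGTG, which contains ACGTG, occurred in none of the 10 and in 7.24% of all. CANNTG, the pattern of bHLH proteins such as SPCH and its partners, occurred in 5 of 10 and in 56.2% of all. These are descriptions of letters in a short window.

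STOMAGEN (AT4G12970) was the only member at least 2-fold away from the control, and it was lower in all 4 treated columns. Its count was 3008 in the control, 1381 and 1515 at 1 h and 3 h of ABA, and 1072 and 1373 at 1 h and 3 h of dehydration. In CPM the level was 17.2 in the control and 8.29, 7.83, 5.63 and 7.69 in the treated columns, in the same order. The control stood apart, and dehydration 1 h was the lowest column. The log2 ratio to the control was −1.05 (−1.14 to −0.96) after ABA 1 h and −1.14 (−1.23 to −1.05) after ABA 3 h. After dehydration it was −1.61 (−1.71 to −1.51) at 1 h, which is 3.05-fold lower, and −1.16 (−1.25 to −1.07) at 3 h. In bulk tissue, fewer cells that make the transcript and less transcript per cell cannot be told apart.

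Read against all measured genes, 1 of 9 measured members was at least 2-fold lower in each comparison with the control, where the share of genes was 5.31% and 8.01% at 1 h and 3 h of ABA and 5.86% and 6.68% at 1 h and 3 h of dehydration. With total-count scaling, STOMAGEN after ABA 1 h had a log2 ratio of −0.98, which leaves 0 members past the limit. No measured member was at least 2-fold higher, against 4.42%, 8.88%, 7.48% and 10.3% of genes in the same order of comparisons. The 10 members are a small set, and 1 in 9 is not far from these shares.

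**Figure D1:**
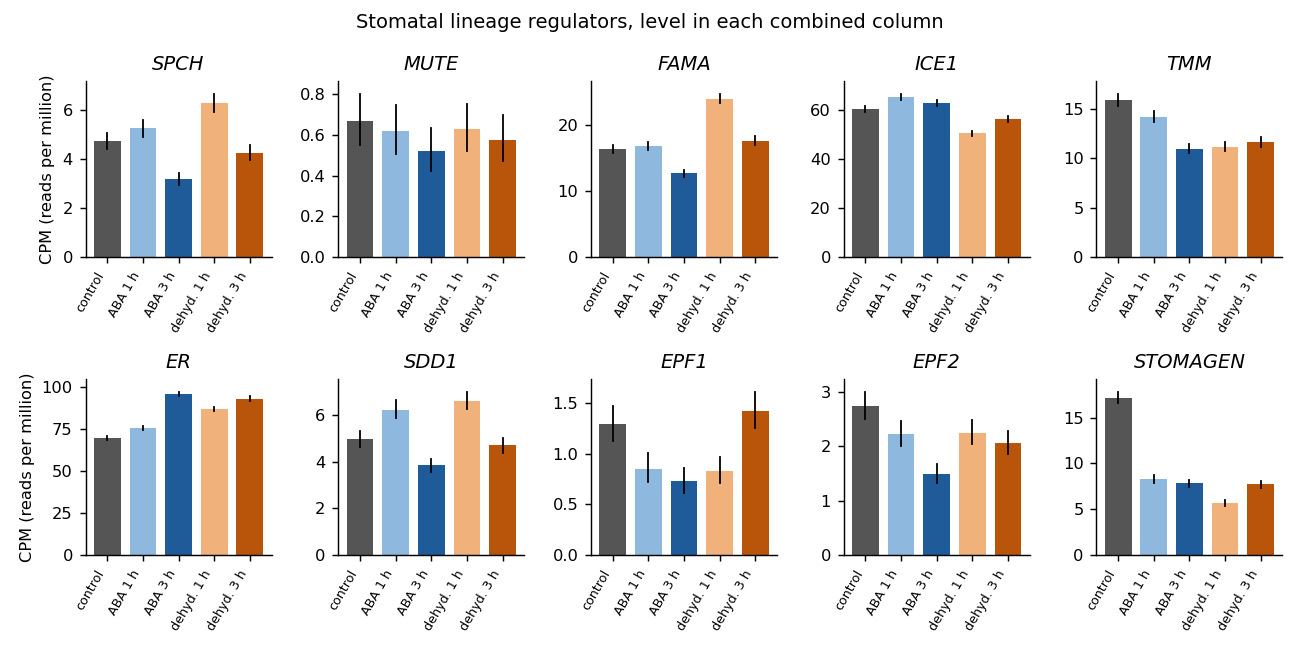
Level of each member in the 5 combined columns, in CPM (vertical axis, from 0, with its own scale per gene); bars are the columns and black lines are 95% counting intervals, with no replicate error. STOMAGEN stands at 17.2 CPM in the control and between 5.63 and 8.29 CPM in the treated columns. SPCH, FAMA and SDD1 are highest after dehydration 1 h and lowest after ABA 3 h, and for SDD1 the intervals of both 1 h columns overlap.

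Markers of the mesophyll, the tissue known to make STOMAGEN, were also lower. All 5 mesophyll markers analysed here lay below the control in each of the 4 treated columns, with median log2 ratios of −0.73 and −1.12 at 1 h and 3 h of ABA and −0.82 and −1.08 at 1 h and 3 h of dehydration. Their summed level was 12574 CPM in the control and 5649 to 7694 CPM in the treated columns. The markers included LHCB3 (AT5G54270), an antenna protein of photosystem II, at −0.73, −1.33, −0.94 and −0.92, and CA1 (AT3G01500), a carbonic anhydrase, which reached −2.23 after ABA 3 h. The least lowered marker of each column stood at −0.31, −0.60, −0.61 and −0.53, in the same order. LHCB1.1, another of the 5, has near-identical copies between which reads could have been split.

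Set against those markers within a column, which needs no scaling between columns, the reads of STOMAGEN came to 0.137% of the marker reads in the control. The percentage was 0.108% and 0.139% at 1 h and 3 h of ABA, and 0.0802% and 0.108% at 1 h and 3 h of dehydration. After ABA 3 h the ratio to the summed marker reads was thus close to that of the control, and after dehydration 1 h it was lowest. Single markers differed, with log2 ratios to the control from −2.23 to −0.60 after ABA 3 h. The part of the mesophyll markers in the level of STOMAGEN was not tested.

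**Figure D2:**
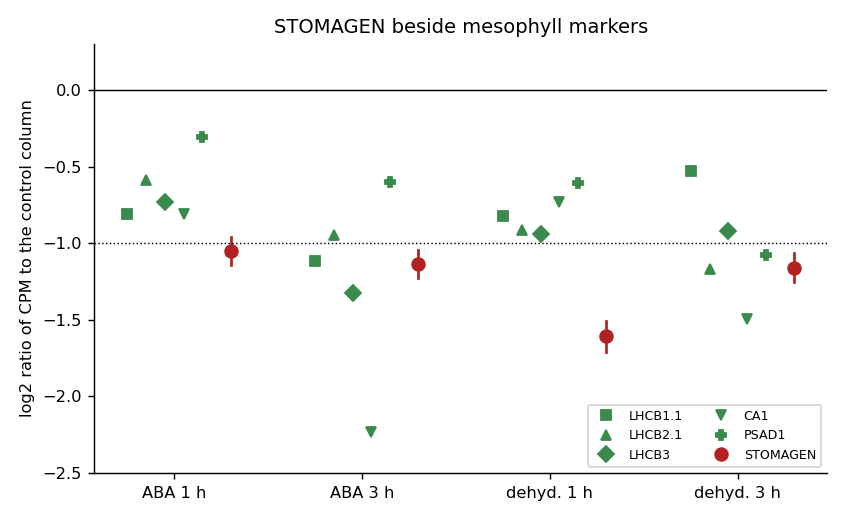
Log2 ratio of CPM to the control (vertical axis) in the 4 treated columns for STOMAGEN (red, with 95% counting interval) and the 5 mesophyll markers (green symbols); the dotted line marks 2-fold lower. All lie below 0, and STOMAGEN is below every marker after ABA 1 h and dehydration 1 h, with log2 ratios of −1.05 and −1.61.

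EPF2 (AT1G34245), the peptide that limits entry into the lineage, was below the control in every treated column, by less than 2-fold. Its counts were 481 in the control, 372 and 289 after ABA 1 h and 3 h, and 429 and 368 after dehydration 1 h and 3 h, or 2.75, 2.23, 1.49, 2.25 and 2.06 CPM. ABA 3 h was lowest, with a log2 ratio of −0.88 (−1.10 to −0.67). The ratios were −0.30 (−0.50 to −0.10) after ABA 1 h, −0.29 (−0.48 to −0.10) after dehydration 1 h and −0.41 (−0.61 to −0.22) after dehydration 3 h. With total-count scaling the ratio after dehydration 1 h was −0.15, and its interval then held 0.

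EPF1 (AT2G20875), the peptide that spaces stomata and acts later in the lineage, was the scarcest of the measured members in reads. Its counts were 226 in the control, 142 and 141 after ABA 1 h and 3 h, and 158 and 254 after dehydration 1 h and 3 h. In CPM these were 1.29, 0.852, 0.728, 0.830 and 1.42. The control and dehydration 3 h formed the upper end and the other 3 columns the lower. Its mean over the conditions was 1.03 CPM, and only the upper columns were above the limit of 1. The log2 ratios to the control were −0.60 (−0.91 to −0.29), −0.83 (−1.14 to −0.52) and −0.64 (−0.94 to −0.34) in the 3 lower columns. After dehydration 3 h the ratio was 0.14 (−0.12 to 0.41), so a difference from the control was not detectable at this depth.

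Because the inhibiting and promoting peptides share receptors, their reads were also compared within each column. For each read of STOMAGEN there were 0.160 reads of EPF2 in the control (0.145 to 0.176). After dehydration 1 h there were 0.400 (0.357 to 0.448), and after ABA 1 h and dehydration 3 h 0.269 (0.240 to 0.302) and 0.268 (0.238 to 0.301). After ABA 3 h there were 0.191 (0.168 to 0.216), an interval that overlapped that of the control. Such overlap does not show that the ratios were equal. For EPF1 the reads per read of STOMAGEN were 0.0751 in the control, 0.103 and 0.0931 after ABA 1 h and 3 h, 0.147 after dehydration 1 h and 0.185 (0.161 to 0.212) after dehydration 3 h. Both ratios had their lowest value in the control column. For EPF1 the control interval (0.0653 to 0.0860) overlapped those after ABA 1 h and 3 h, and for EPF2 that after ABA 3 h. The lowest column is thus not resolved for either. Per length (FPKM), STOMAGEN was 11.7 times EPF2 in the control and 4.73 times after dehydration 1 h.

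The receptors differed in direction. ER (AT2G26330), a receptor kinase that also shapes organ growth, had counts of 12145 in the control, 12552 and 18508 after ABA 1 h and 3 h, and 16518 and 16585 after dehydration 1 h and 3 h. The CPM levels were 69.4, 75.4, 95.6, 86.8 and 92.9, so the control was lowest. Its log2 ratios to the control were 0.12 (0.08 to 0.15), 0.46 (0.43 to 0.50), 0.32 (0.29 to 0.36) and 0.42 (0.39 to 0.46). TMM (AT1G80080), the receptor-like protein that tunes ER signalling in the epidermis, had counts of 2780, 2364, 2120, 2127 and 2071, and CPM levels of 15.9, 14.2, 11.0, 11.2 and 11.6. The control was highest, and the 3 columns other than ABA 1 h were close together. Its log2 ratios were −0.16 (−0.24 to −0.08), −0.54 (−0.62 to −0.45), −0.51 (−0.59 to −0.43) and −0.45 (−0.54 to −0.37).

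Within a column, reads of TMM per read of ER were 0.229 (0.220 to 0.239) in the control and 0.188 (0.180 to 0.197) after ABA 1 h. They were 0.115 (0.109 to 0.120) after ABA 3 h, 0.129 (0.123 to 0.135) after dehydration 1 h and 0.125 (0.119 to 0.131) after dehydration 3 h. No treated column overlapped the control in this ratio, and per length ER was 2.20 times TMM in the control and 4.36 times after ABA 3 h.

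**Figure D3:**
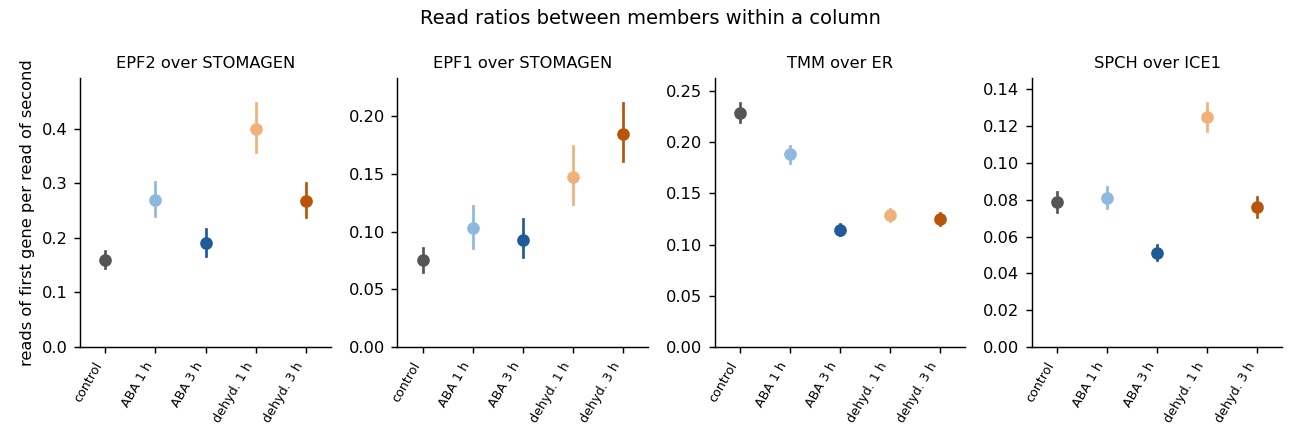
Reads of one member per read of another within each combined column (vertical axis, from 0), with 95% counting intervals as lines. EPF2 over STOMAGEN runs from 0.160 in the control to 0.400 after dehydration 1 h, TMM over ER from 0.229 in the control to 0.115 after ABA 3 h, and SPCH over ICE1 from 0.0511 after ABA 3 h to 0.125 after dehydration 1 h.

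SDD1 (AT1G04110), a subtilisin-like protease that restrains stomatal number, had counts of 868 in the control, 1038 and 744 after ABA 1 h and 3 h, and 1259 and 837 after dehydration 1 h and 3 h. The CPM levels were 4.96, 6.23, 3.84, 6.62 and 4.69. Both 1 h columns were above the control and ABA 3 h was below it. The log2 ratios were 0.33 (0.20 to 0.46) after ABA 1 h, −0.37 (−0.51 to −0.23) after ABA 3 h and 0.42 (0.29 to 0.54) after dehydration 1 h. After dehydration 3 h the ratio was −0.08 (−0.22 to 0.06), which is not distinguishable from the control at this depth.

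Among the bHLH factors, SPCH (AT5G53210) had counts of 829 in the control, 877 and 619 after ABA 1 h and 3 h, and 1199 and 760 after dehydration 1 h and 3 h. Its levels were 4.74, 5.27, 3.20, 6.30 and 4.26 CPM. Dehydration 1 h was the high column and ABA 3 h the low one, 1.97-fold apart. The log2 ratios to the control were 0.15 (0.01 to 0.29), −0.57 (−0.72 to −0.42), 0.41 (0.28 to 0.54) and −0.15 (−0.30 to −0.01). The last of these was −0.14 with RLE and −0.12 with total-count scaling, and its interval then held 0. FAMA (AT3G24140, listed as FMA) had counts of 2875, 2810, 2461, 4564 and 3151 and levels of 16.4, 16.9, 12.7, 24.0 and 17.7 CPM. It shared its high and low columns with SPCH, with log2 ratios of 0.55 (0.48 to 0.61) after dehydration 1 h and −0.37 (−0.45 to −0.29) after ABA 3 h. The ratios after ABA 1 h and dehydration 3 h were 0.04 (−0.04 to 0.11) and 0.10 (0.03 to 0.18). With upper-quartile scaling the interval after dehydration 3 h held 0, at 0.05, and with total-count scaling that after ABA 1 h did not, at 0.11.

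MUTE (AT3G06120) was the rarest member, with counts of 117, 103, 101, 120 and 103 and levels between 0.522 and 0.669 CPM. All 4 of its intervals against the control held 0, and the widest ran from −0.76 to 0.04, after ABA 3 h. With upper-quartile scaling that one lay below 0 (−0.84 to −0.05). Other differences of MUTE from the control were not detectable at this depth. ICE1 (AT3G26744), the shared dimer partner, also known as an activator of cold-response genes, varied least in level among the better-read members. Its counts were 10543, 10836, 12115, 9593 and 10014, and its levels 60.2, 65.1, 62.6, 50.4 and 56.1 CPM. The ratio to the control was −0.26 (−0.30 to −0.22) after dehydration 1 h and −0.10 (−0.14 to −0.06) after dehydration 3 h, and 0.11 (0.07 to 0.15) after ABA 1 h. After ABA 3 h it was 0.05, which became −0.03 with upper-quartile scaling and 0.02 with scaling by total count, both with intervals that held 0.

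For each read of ICE1 there were 0.0786 reads of SPCH in the control, 0.0809 after ABA 1 h and 0.0759 after dehydration 3 h. The ratio was 0.125 (0.118 to 0.133) after dehydration 1 h and 0.0511 (0.0471 to 0.0554) after ABA 3 h, both clear of the control interval of 0.0732 to 0.0844. FAMA gave 3.47 reads per read of SPCH in the control (3.21 to 3.75) and 3.20 to 4.15 in the treated columns. The highest, 4.15 (3.83 to 4.49) after dehydration 3 h, was clear of the control interval, which the other treated columns overlapped. For each read of MUTE there were 7.09 reads of SPCH in the control and 9.99 after dehydration 1 h. The counting intervals of this ratio of MUTE and SPCH overlapped between those columns. Overlap does not show that ratios were equal.

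**Figure D4:**
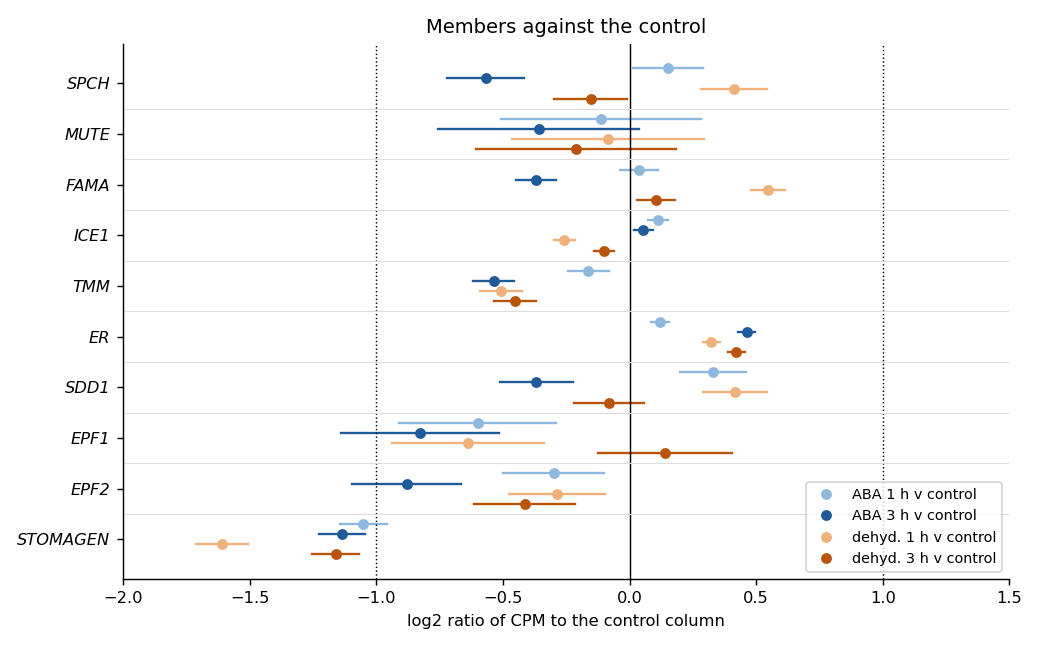
Log2 ratio of CPM to the control (horizontal axis) for each member in the 4 treated columns, with 95% counting intervals as lines and dotted lines at 2-fold. STOMAGEN is beyond the dotted line in all 4, ER is above 0 and TMM below 0 in all 4, and SPCH and SDD1 lie on opposite sides of 0 at 1 h and 3 h of ABA.

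Levels of different genes were compared per length, as FPKM. In the control, STOMAGEN led with 65.2 FPKM, above 88.4% of the genes in the table, followed by ICE1 at 38.2, ER at 24.1, TMM at 10.9 and FAMA at 9.60. EPF2 at 5.56, EPF1 at 5.08 and SPCH at 4.48 came next. The intervals of EPF2 and EPF1 overlapped, and so did those of EPF1 and SPCH. SDD1 at 2.18 and MUTE at 1.11 closed the order. In the treated columns ICE1 came first, at 32.3 to 40.1 FPKM, and STOMAGEN was second after ABA 1 h and rank 3 in the other 3. FAMA stood above TMM after both times of dehydration, and their intervals overlapped after both times of ABA.

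By column, 7 of 10 members had their lowest CPM after ABA 3 h: SPCH, MUTE, FAMA, TMM, SDD1, EPF1 and EPF2. For MUTE, TMM and EPF1 the interval after ABA 3 h overlapped those of other treated columns, so their lowest column is not resolved. Of all measured genes, 22.6% were lowest after ABA 3 h. The number was also 7 with each of the 3 other scalings of the columns, where the share of all genes lay between 21.5% and 30.6%, and it was 6 in FPKM, where TMM was lowest after dehydration 1 h. After dehydration 1 h SPCH, FAMA and SDD1 had their highest CPM, and 18.9% of all genes did. For SDD1 the interval there overlapped that after ABA 1 h, so its highest column is not resolved. With total-count scaling 5 members were highest there, MUTE and ER being added, and so were 29.5% of all genes.

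Between the times of ABA, 8 of 9 measured members were lower at 3 h than at 1 h, with a median log2 ratio of −0.37 against 0.01 over all genes, and with upper-quartile scaling that median of all genes was −0.10. None was 2-fold apart, against 7.32% of genes. Among the 8, the intervals of EPF1, at −0.23 (−0.57 to 0.12), and STOMAGEN, at −0.08 (−0.19 to 0.02), held 0. With upper-quartile or total-count scaling that of STOMAGEN lay below 0. SPCH was 1.65-fold lower at 3 h, with a log2 ratio of −0.72 (−0.87 to −0.57), and SDD1 1.62-fold lower, at −0.70 (−0.84 to −0.56). ER was higher at 3 h, at 0.34 (0.31 to 0.38).

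Between the times of dehydration the members split, with 5 of 9 higher at 3 h and none 2-fold apart, against 6.79% of genes. With total-count scaling 3 of 9 were higher, since TMM and ER changed from 0.05 and 0.10 to −0.05 and −0.01. EPF1 was 1.71-fold higher at 3 h, with a log2 ratio of 0.78 (0.49 to 1.07), and STOMAGEN 1.37-fold higher, at 0.45 (0.33 to 0.57). SPCH, SDD1 and FAMA were lower at 3 h, at −0.57 (−0.70 to −0.43), −0.50 (−0.62 to −0.37) and −0.44 (−0.51 to −0.38).

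Dehydration was also set against ABA at the same time. At 1 h no measured member was 2-fold apart, against 8.93% of genes. FAMA was higher after dehydration, at a log2 ratio of 0.51 (0.44 to 0.58), and STOMAGEN was lower, at −0.56 (−0.67 to −0.44), as was ICE1, at −0.37 (−0.41 to −0.33). At 3 h again none was 2-fold apart, against 16.0% of genes. EPF1 came nearest, 1.95-fold higher after dehydration at 0.97 (0.66 to 1.27), and it passed 2-fold with total-count scaling. Its mean of 1.03 CPM met the limit of 1 only through the control and dehydration 3 h, and ABA 3 h was at 0.728 CPM. EPF2, FAMA and SPCH were higher after dehydration at 0.47 (0.24 to 0.69), 0.47 (0.40 to 0.55) and 0.41 (0.26 to 0.57). STOMAGEN had a ratio of −0.02 (−0.13 to 0.08).

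Further genes of the pathway were described from 5 lists with 42 genes, of which 35 were measured. With ABA, 0 were at least 2-fold higher and 4 lower at 1 h, and 1 and 3 at 3 h. With dehydration the numbers were 1 and 3 at 1 h and 1 and 2 at 3 h, which may be read against the shares of all genes above. The medians of the 35 were −0.02, −0.12, 0.01 and 0.01, and those of all genes lay between −0.04 and 0.00.

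Among the factors, GTL1 (AT1G33240), a trihelix protein known to repress SDD1, was lower in all 4 treated columns. It stood at 144.6 CPM in the control and 47.0, 51.2, 30.8 and 29.3 CPM in the treated columns, in the order used above. Its log2 ratios were −1.62, −1.50, −2.23 and −2.30, and those of SDD1 in the same columns were 0.33, −0.37, 0.42 and −0.08. FLP (AT1G14350), a MYB factor that stops guard mother cells from dividing again, was 2.22-fold higher after ABA 3 h. SCAP1 (AT5G65590), a Dof factor of guard cell maturation, was 2.14-fold lower after dehydration 3 h. SCRM2 (AT1G12860), the relative of ICE1, had ratios of −0.44, −0.36, −0.65 and −0.79.

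Of the EPFL peptides and the protease CRSP, 4 of 9 were measured. EPFL1 (AT5G10310), a relative of the EPF peptides, was lower at 2.54-fold after ABA 1 h, 2.21-fold after ABA 3 h and 2.30-fold after dehydration 1 h. Among 6 further receptors and co-receptors, SERK4 (AT2G13790), a co-receptor kinase also known from immunity, was higher after dehydration, by 4.49-fold at 1 h and 2.61-fold at 3 h. The ER relatives ERL1 (AT5G62230) and ERL2 (AT5G07180) had log2 ratios between −0.69 and 0.24.

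In the MAP kinase cascade that carries the receptor signal to SPCH, 7 of 8 genes were measured. MPK3 (AT3G45640) was 2.38-fold lower after ABA 1 h and 2.48-fold lower after ABA 3 h, and its log2 ratio after dehydration 1 h was 0.03. MKK9 (AT1G73500) was 2.03-fold lower after ABA 1 h and 3.33-fold lower after dehydration 1 h. The kinase YDA (AT1G63700) at the head of the cascade was highest after dehydration 1 h, at 0.70 (0.66 to 0.74), and MPK6 (AT2G43790) had ratios between 0.15 and 0.21. In the list of polarity and asymmetric division none of 9 measured genes was 2-fold apart from the control. BASL (AT5G60880), a protein that marks the side of the cell away from the division, had ratios of 0.09, −0.63, 0.34 and 0.40.

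**Figure D5:**
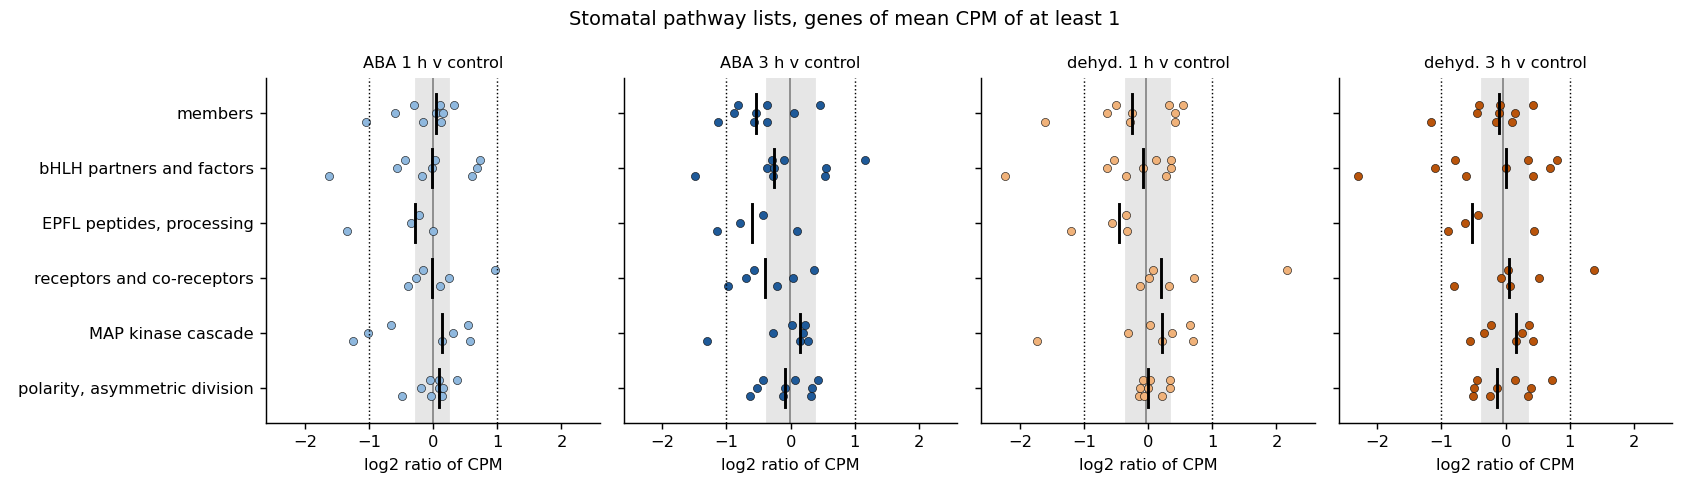
Log2 ratio of CPM to the control (horizontal axis) for measured genes of the members and the 5 pathway lists, 1 panel per treated column; dots are genes, black bars list medians, the grey band the middle of all measured genes between quartiles, and dotted lines 2-fold. The lowest dot among factors is GTL1, at −2.30 after dehydration 3 h, and the highest among receptors SERK4, 4.49-fold higher after dehydration 1 h.

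Markers of other cells were read beside the members. Mature guard cell markers, 12 of 12 measured, had medians of −0.37, −0.33, 0.09 and −0.06 in the 4 comparisons with the control, and their summed level lay between 2357 and 3313 CPM. In the order of the 4 comparisons, 1, 2, 0 and 2 of them were at least 2-fold higher and 2, 4, 0 and 2 lower. Of all measured genes, 4.42%, 8.88%, 7.48% and 10.3% were higher by that limit and 5.31%, 8.01%, 5.86% and 6.68% lower. The counts of each marker list below may be read against the same shares. After ABA 3 h the potassium channel gene GORK (AT5G37500) was the highest, 7.01-fold above the control, and GASA9 (AT1G22690) the lowest, 4.83-fold below it. After ABA 1 h the highest and lowest were the cuticle gene CYP86A2 (AT4G00360), at a log2 ratio of 1.03, and the guard cell factor MYB60 (AT1G08810), at −1.38. After dehydration 3 h they were CYP86A2, at 2.17, and the potassium channel gene KAT2 (AT4G18290), at −1.65. Epidermis markers, 9 of 10 measured, had medians between −0.26 and −0.04, with a summed level of 993 to 1334 CPM. Of these, 0, 0, 0 and 2 were at least 2-fold higher, led by the wax transporter gene CER5 (AT1G51500) at 2.41-fold, and 0, 1, 1 and 1 lower. The lower ones were CPC (AT2G46410), a MYB protein of hair patterning, 2.30-fold after ABA 3 h, and GL2 (AT1G79840), a homeodomain factor of hair patterning, 2.61-fold and 2.34-fold at 1 h and 3 h of dehydration. Cell division markers, 7 of 8 measured, had medians between −0.10 and 0.22, a summed level of 100.2 to 121.7 CPM and no gene 2-fold apart. Root markers, 6 of 8 measured, had medians between −0.89 and 0.01 and a summed level of 57.8 to 84.0 CPM. Of these, 1, 0, 1 and 1 were at least 2-fold higher and 0, 0, 2 and 1 lower. The stem cell factor WOX5 (AT3G11260) had 49 reads in the control and, with dehydration, 245 at 1 h and 2172 at 3 h, 43.5-fold higher in CPM at the later time. The root hair factor RHD6 (AT1G66470) was 2.15-fold higher after ABA 1 h. The root hair genes EXP7 (AT1G12560) and COBL9 (AT5G49270) were lower, EXP7 by 2.67-fold after dehydration 1 h and COBL9 by 2.53-fold after dehydration 3 h. The part of these cell types in the levels of the members was not tested.

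The genes whose 4 ratios to the control lay closest to those of STOMAGEN, by the greatest difference over the 4, were AT1G66190, AT3G23930 and AT2G01755, at 0.17, 0.20 and 0.23 log2 among 18871 genes compared. The tables give them no symbol and list them as unknown proteins. AT1G66190 had ratios of −1.01, −0.97, −1.69 and −1.15.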

How the data were processed

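Per the labels' protocols, stranded libraries of polyadenylated RNA were read as single reads, and replicates of a condition were pooled in one well. The genome build was TAIR10 and the tools were Cuffdiff, Cufflinks 2.1.1, DESeq2 and TopHat2 2.0.8, per the submitters' processing notes. The role of each tool, the counter, its strand setting and how replicates were combined are, in the sources used here, not given. Deposited by the authors were raw read counts per gene and FPKM values per gene, 1 column per condition per the file headers.

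CPM was computed with trimmed-mean (TMM) factors of edgeR 4.0.16 in R 4.3.3. That abbreviation is also a gene name, so in the results TMM is the gene. Where the FPKM was 1 or more but the count 0 (1 cell, of no member), the count was treated as missing. Counts under 3 were set to 3 in ratios. Intervals are exact Clopper-Pearson (ratios) and Poisson (levels) at 95%, from SciPy 1.17.1. Without molecular identifiers they cover counting error only. Ratios and intervals were tested on simulated Poisson counts with known scaling, which is the error that the intervals assume. Replicate spread and the estimation of scaling factors were outside that check. Tests planned for separate libraries could not be run on combined columns.

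The members and lists were chosen with earlier results of these data known, and the upstream patterns after the values were seen. Named were all members, pathway genes of mean CPM of at least 1 past 2-fold, the highest and the lowest gene past it in each other list, some further listed genes for context, and the 3 genes nearest in pattern to a member past 2-fold. Of the mesophyll list, RBCS1A is not analysed here. No member overlaps another gene in the RefSeq annotation of TAIR10.1. As that build is not the authors', no coordinates are given. Also tried were total-count, upper-quartile and RLE scaling, other filters, log2(FPKM + 1), log2(FPKM + 0.1) and a 1.5-fold limit.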

Additional observations from a re-analysis of the deposited data

Results flagged for a closer look

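Between 2 columns that share a treatment or a time, values on opposite sides of the control, with counting intervals clear of 0 under all 4 scalings, were found for 3 members. The difference was not tested, since each column is a combination of libraries and the comparisons share the control column. SPCH had a log2 ratio of 0.15 after ABA 1 h and −0.57 after ABA 3 h, and SDD1 had 0.33 and −0.37. ICE1 had 0.11 after ABA 1 h and −0.26 after dehydration 1 h. FAMA, with −0.37 after ABA 3 h and 0.55 after dehydration 1 h, met the same condition only between columns that share neither.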

How the results depend on the processing

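No paired analysis was possible because each condition has 1 combined column, and for the same reason no replicate could be left out and DESeq2 was not run. No log2 ratio of a member past 2-fold, which means STOMAGEN alone, changed sign under any alternative. Of the 80 member ratios, 24 left their counting interval with total-count scaling, 13 with upper-quartile scaling and 12 on log2(FPKM + 1). On log2(FPKM + 0.1) it was 6, and with RLE scaling all 80 stayed within it. For dehydration 1 h against control, total-count scaling moved ER from 0.32 to 0.46 and ICE1 from −0.26 to −0.12. With total-count scaling STOMAGEN after dehydration 1 h moved to −1.47, and the members lower after ABA 1 h became 0, against 4.77% of genes. So scaled, the members apart between dehydration and ABA at 3 h became 1, against 16.2% of genes. The pathway genes higher after ABA 1 h also became 1, against 4.94% of genes. With a 1.5-fold limit the members lower became 2 and 3 at 1 h and 3 h of ABA, and 2 at 1 h of dehydration. Of all genes, 11.7%, 16.3% and 13.8% were lower by that limit, in the same order. Members apart became 2 between the times of ABA, 1 between the times of dehydration and 1 between treatments at 3 h. The shares of all genes were 17.5%, 19.0% and 31.2%. Pathway genes higher became 4 at 1 h of ABA, against 10.1% of genes, and 4 at either time of dehydration, against 15.1% and 17.4%. Those lower became 7 after ABA 3 h and 7 after dehydration 3 h, against 16.3% and 15.3% of genes. With no filter, pathway genes higher became 1 after ABA 1 h and 2 after ABA 3 h, against 5.81% and 10.2% of genes. Those lower after dehydration 3 h became 1 on log2(FPKM + 1), and with the mean CPM filter of 5 also 1. Over all genes, the number past 2-fold differed by over 1.5 times with no filter in 8 of 12 counts, such as 3014 against 1942 higher after dehydration 3 h, at a mean CPM of at least 5 in 3, such as 945 against 1511 lower after ABA 3 h, and on log2(FPKM + 1) in 1, 555 against 835 higher after ABA 1 h. The 1.5-fold limit moved all 12, such as 3279 against 1942 higher after dehydration 3 h. Total-count scaling moved the median of all genes to 0.11 for dehydration 1 h against control and to −0.12 between the times of dehydration. Depth limits MUTE and EPF1, with at most 254 reads in a column.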
